A study of Bos taurus with 2 samples.

Results

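The genes described here encode proteins that cut or strengthen the scaffold around muscle cells, or that restrain the cutting. They are the matrix metalloproteinases MMP2 and MMP14, the tissue inhibitors of metalloproteinases TIMP2 and TIMP3, the lysyl oxidases LOX, LOXL1 and LOXL2, and the lysyl hydroxylase PLOD2. They were chosen by name, as 9 listed members, and 8 of the 9 matched a row among the 21867 genes of the deposited feature list. The ninth, TIMP1, was not analysed here. At least 1 UMI was counted for 16816 of those genes and for all 8 members.

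The cells were satellite cells, the resident stem cells of skeletal muscle, from the longissimus muscle of a male Holstein bull calf that was 2 weeks old. They were freed with pronase and cultured for 1 week in growth medium, which was DMEM with 10% fetal bovine serum, with no further treatment. The same cells were used for 2 single-cell RNA libraries, replicates 1 and 2, so their spread reflects preparation and sequencing only and no spread between animals was measured. The question was how these genes were distributed over the 15 cell clusters that the authors drew, and over the myogenic stages and the fibro-adipogenic cells they named.

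Matrix metalloproteinases are zinc enzymes that cut collagens and other matrix proteins. MMP14 sits in the cell membrane and activates the secreted gelatinase MMP2, and TIMP2, besides blocking both, helps to bring MMP2 to MMP14. TIMP3 is held in the matrix itself. PLOD2 hydroxylates lysines at the ends of collagen chains, and LOX, LOXL1 and LOXL2 oxidise lysines and hydroxylysines so that the chains become covalently crosslinked. In muscle, this matrix lies around fibres and satellite cells, and fibro-adipogenic progenitors are known as one of its main producers.

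Each library gave the number of captured RNA molecules, counted by unique molecular identifiers (UMIs), for every gene in every cell. Replicate 1 held 9939 cells and 145631299 UMIs and replicate 2 held 9157 cells and 137818568 UMIs, and 27 cell barcodes occurred in both. A level below is the UMIs of a gene per 10000 UMIs of all genes in the same cells and library, given as replicate 1 and replicate 2 or as mean ± SD over the 2 libraries. A called difference is one with an adjusted p under 0.05 in edgeR's quasi-likelihood test, with 2 library sums on each side and p-values adjusted by Benjamini-Hochberg over all genes tested. The authors drew the clusters from these same counts, so a p-value states only that a difference was larger than the spread between library preparations. It is not independent evidence that the clusters differ.

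The names that the study gave to clusters were checked against marker genes. Clusters 8, 5 and 4 are its satellite cells, clusters 1 and 2 its myoblasts, clusters 3 and 12 its differentiating myoblasts or myocytes and clusters 9 and 7 its fibro-adipogenic progenitors. Differentiation markers (MYOG, MYMK, MYH3, MYL1 and STAC3 summed) stood at 40.3 UMIs per 10000 in cluster 12 and 9.01 in cluster 3, against 0.259 in cluster 8, the order that the names imply. The satellite cell markers PAX7 and PAX3 were near 0 in every cluster, with means of at most 0.03. The summed level of PDGFRA, PPARG, ZNF423, DCN, LUM and CD34, the fibro-adipogenic list, was highest in satellite cell cluster 8 at 21.0, where DCN alone gave 14.96. In clusters 9 and 7 it was 14.2 and 15.3, and in satellite cell clusters 5 and 4 it was 14.6 and 14.2. These lists thus did not set clusters 8, 5 and 4 apart as satellite cells, and that name is the study's. PDGFRA itself was at 1.58 in cluster 9 and 1.48 in cluster 7 and at most 0.50 elsewhere. Cluster 7 was mixed in its markers and shallow. Its differentiation markers summed to 7.67, against 0.466 in cluster 9, and its cells had a median of 1389 UMIs, against 23011 in cluster 9. Medians were also low in clusters 13, 14 and 15, at 1631, 2513.5 and 647 UMIs per cell. The immune, endothelial and glial lists summed to at most 0.158, 0.028 and 0.000 UMIs per 10000 in any cluster. The pericyte list summed to 3.99 in cluster 7 and to at most 1.13 in any other cluster, and the smooth muscle list was highest in cluster 8, at 9.89, with 8.53 in cluster 7. The part of such cells in the levels of cluster 7 given below was not tested.

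MMP2 was detected in 96.6% of all cells. It was lowest in myocyte cluster 12 and highest in cluster 7. In replicates 1 and 2 its level was 25.1 and 30.5 in cluster 7 and 17.5 and 16.5 in cluster 8, the next in order. It was 11.7 and 11.9 in cluster 5, 12.3 and 12.2 in cluster 4, 13.3 and 13.2 in cluster 1 and 8.54 and 8.26 in cluster 2. In cluster 3 it was 7.39 and 7.32, and in cluster 12 it was 4.56 and 4.30. Unidentified cluster 14, with 6.31 and 7.16, lay between clusters 3 and 12. The mean in cluster 7 was 6.27-fold that in cluster 12, and the library values of neighbours in the order of the 15 clusters overlapped in 3 of 14 cases. This order and fold are of plain shares of UMIs. With TMM, a scaling factor of edgeR, the log2 fold change of MMP2 against all other cells was 0.76 in cluster 7 and 0.79 in cluster 8. The lead of cluster 7 over cluster 8 thus rests on the scaling. Cluster 9, with 10.4 and 10.9, lay near the middle of the order, below all 3 satellite cell clusters and cluster 1.

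MMP14, the membrane-bound activator of MMP2, was likewise highest in cluster 8 and lowest in cluster 12 among the myogenic clusters, but its place in cluster 9 was different. Its level was 1.29 and 1.09 in cluster 8, 0.911 and 0.952 in cluster 5 and 0.794 and 0.740 in cluster 4. It was 0.625 and 0.666 in cluster 1, 0.516 and 0.507 in cluster 2, 0.387 in both libraries of cluster 3 and 0.203 and 0.240 in cluster 12. Cluster 9 had 1.55 and 1.56, above every one of these myogenic clusters. The highest level was again in cluster 7, with 2.90 and 2.95, which was 13.2-fold that in cluster 12. Clusters 13 and 10, which the study did not identify, had 1.55 and 1.61 and 1.47 and 1.44.

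**Figure D1:**
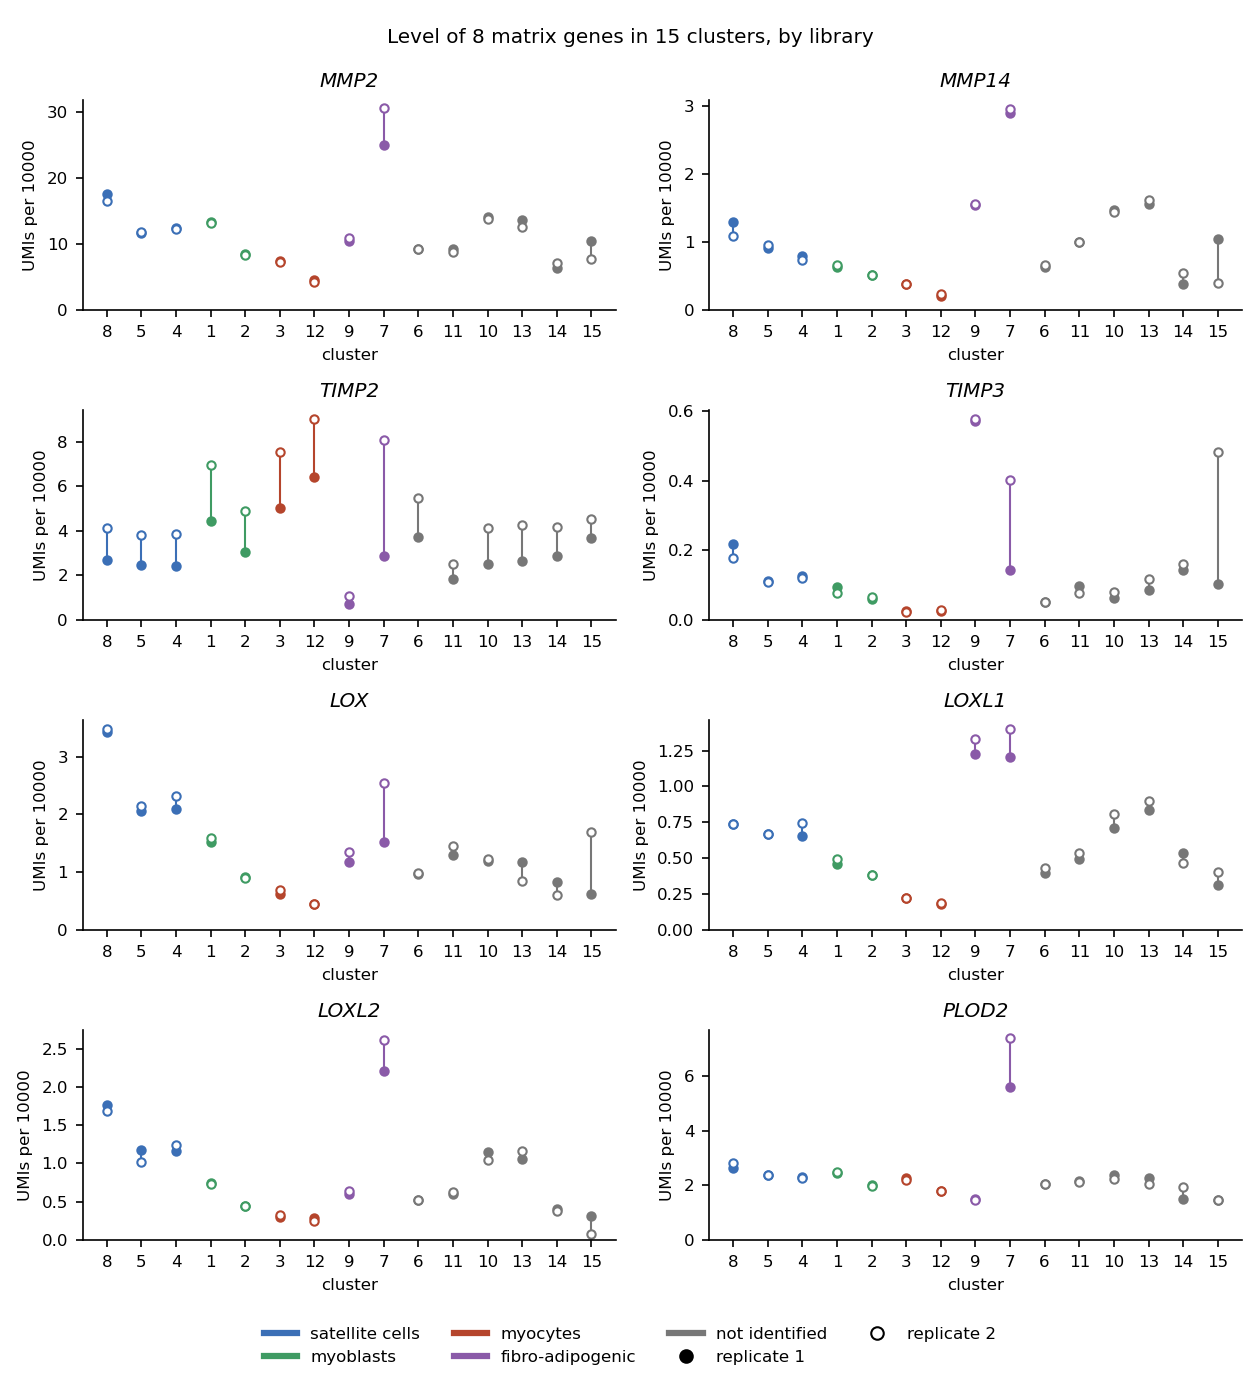
Level of each gene in UMIs per 10000 UMIs (y axis, a separate scale per gene, from 0) in the 15 clusters (x axis), with filled points for replicate 1 and open points for replicate 2 joined by a line. Of the 8 genes, 6 are several-fold lower in myocyte cluster 12 than in satellite cell cluster 8, though not by even steps between them. PLOD2 differs less between these clusters, with 2.64 and 2.82 in cluster 8 and 1.81 in both libraries of cluster 12, and is highest in cluster 7. TIMP2 is highest in cluster 12 at 6.39 and 9.0, with replicate 2 above replicate 1 in 15 of 15 clusters.

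TIMP2 ran the other way. It was highest in the myocytes and lowest in cluster 9. Cluster 12 had 6.39 and 9.0, cluster 3 had 5.03 and 7.51 and cluster 1 had 4.44 and 6.95. The satellite cell clusters 8, 5 and 4 had 2.69 and 4.14, 2.47 and 3.83, and 2.42 and 3.85, and cluster 2 had 3.03 and 4.87. Cluster 9 had 0.70 and 1.10. No other cluster came near to that, since the next lowest, cluster 11, had 1.86 and 2.51, and the highest mean was 8.57-fold the lowest. In every cluster replicate 2 read higher than replicate 1, and neighbouring clusters overlapped in 13 of 14 cases.

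The gap between the libraries was far larger for TIMP2 than for the other members. Over all cells, its level was 3.22 in replicate 1 and 4.96 in replicate 2, a ratio of 1.54. The ratio lay between 1.23 and 2.81 within the 15 clusters, with a median of 1.55. For the other 7 members, the ratio over all cells ran from 0.954 for TIMP3 to 1.06 for LOX and LOXL1. A gap of at least 1.5-fold in either direction was found for 158 of the 9067 genes with at least 1000 UMIs (1.74%), and for 0 of the 44 genes of related function described below that had as many. TIMP2 ranked 146 of these 9067 genes by size of the gap. The cause of the gap was not tested. Because both sides of a comparison came from the same libraries, blocked values, which compare within each library, are also given where they alter a call. A blocked p-value sets aside the gap that both sides share, and still rests on 2 sums against 2 from the same cells. Its spread is estimated in part from other genes, so a very small value does not measure replication.

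**Figure D2:**
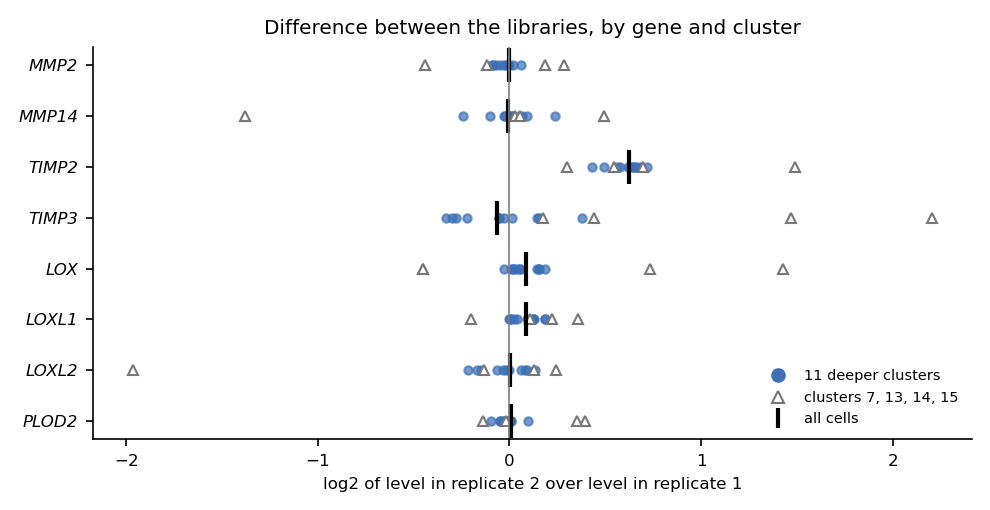
Log2 of the level in replicate 2 over that in replicate 1 (x axis) for each gene (rows), with circles for the 11 deeper clusters, triangles for the shallow clusters 7, 13, 14 and 15, and a bar for all cells. Each of the 15 points of TIMP2 lies to the right of 0, with the bar at 0.62, whereas the bars of the other 7 genes lie between -0.07 and 0.09.

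TIMP3, the inhibitor bound to the matrix, was highest in cluster 9. Its level there was 0.572 and 0.577, against 0.217 and 0.179 in cluster 8. It was 0.125 and 0.121 in cluster 4, 0.112 and 0.110 in cluster 5, 0.0955 and 0.0776 in cluster 1 and 0.0594 and 0.0661 in cluster 2. Cluster 3 had 0.0269 and 0.0231 and cluster 12 had 0.0260 and 0.0288, which overlapped. The mean in cluster 9 was 22.9-fold that in cluster 3. In cluster 7 the libraries disagreed, with 0.145 from 13 UMIs in replicate 1 and 0.402 from 49 UMIs in replicate 2, and the level of cluster 15 rested on 1 and 6 UMIs.

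The inhibitors thus took opposite positions in cluster 9, where TIMP3 was at its highest and TIMP2 at its lowest of all clusters. In clusters 3 and 12 the order of both was turned around.

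LOX, which crosslinks collagen and elastin, was highest in satellite cell cluster 8 and not in the fibro-adipogenic clusters. Its level was 3.42 and 3.48 in cluster 8, 2.10 and 2.32 in cluster 4 and 2.06 and 2.14 in cluster 5. It was 1.52 and 1.59 in cluster 1, 0.913 and 0.894 in cluster 2, 0.629 and 0.701 in cluster 3 and 0.450 and 0.457 in cluster 12. The values of cluster 4 overlapped those of cluster 5, and no other neighbours in this series overlapped. Cluster 9 had 1.19 and 1.35, between clusters 1 and 2. Cluster 7 had 1.53 and 2.54, which overlapped the values of clusters 4, 5 and 1.

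LOXL1, a family member best known for elastic fibres, had its highest levels in both fibro-adipogenic clusters. It was at 1.22 and 1.33 in cluster 9 and at 1.2 and 1.40 in cluster 7, which overlapped. The satellite cell clusters 8, 4 and 5 had 0.735 and 0.737, 0.655 and 0.746, and 0.668 and 0.667. The lowest levels were 0.220 and 0.226 in cluster 3 and 0.184 and 0.187 in cluster 12, and the mean in cluster 7 was 7.03-fold that in cluster 12. With TMM, the log2 fold change of LOXL1 against all other cells was 1.35 in cluster 9 and 0.59 in cluster 7.

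LOXL2, which also acts on the network collagen of basement membranes, was high in cluster 7 and in the satellite cells but not in cluster 9. It was at 2.21 and 2.62 in cluster 7 and 1.76 and 1.68 in cluster 8. Clusters 4 and 5 had 1.17 and 1.24 and 1.18 and 1.01, cluster 1 had 0.747 and 0.730 and cluster 2 had 0.447 and 0.441. Cluster 9, with 0.607 and 0.641, lay between the 2 myoblast clusters. Cluster 3 had 0.298 and 0.326 and cluster 12 had 0.286 and 0.254. The value in cluster 15 rested on 4 UMIs. With TMM, the log2 fold change of LOXL2 against all other cells was 1.07 in cluster 7 and 1.36 in cluster 8.

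PLOD2 changed least over the myogenic clusters. It was at 2.64 and 2.82 in cluster 8 and 1.81 in both libraries of cluster 12, and the other 5 myogenic clusters lay between 1.98 and 2.49. Cluster 9 had 1.51 and 1.46, below all of these. Cluster 7 stood apart with 5.62 and 7.40, while the next highest of the 15 clusters was cluster 8.

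The UMIs of the clusters were then added up by the names of the study. In these pooled sums, every member but TIMP2 stepped down from satellite cells to myoblasts to myocytes in both libraries. Single clusters did not all follow this order. The mean of MMP2 was 13.3 in myoblast cluster 1, above 12.3 and 11.8 in satellite cell clusters 4 and 5. That of PLOD2 was 2.48 in cluster 1, above 2.29 and 2.37 in clusters 4 and 5. For PLOD2 the steps were small, from 2.41 to 2.22 and 2.13. LOX went from 2.45 ± 0.0895 (SD, n = 2 libraries) to 1.2 ± 0.0119 and 0.609 ± 0.0340, and LOXL2 went from 1.28 ± 0.0289 to 0.580 ± 0.00851 and 0.301 ± 0.00799. The ratio of satellite cells to myocytes was 5.31 and 5.26 in replicates 1 and 2 for TIMP3, 4.08 and 3.97 for LOX, 4.42 and 4.12 for LOXL2, 3.21 and 3.33 for LOXL1, 2.76 and 2.56 for MMP14 and 1.99 and 2.01 for MMP2. For PLOD2 it was 1.11 and 1.16. TIMP2 had the opposite order in each library, from 2.5 to 3.68 and 5.36 in replicate 1 and from 3.90 to 5.83 and 7.92 in replicate 2, so that myocytes had 2.15 and 2.03 times the level of satellite cells. The median ratio of satellite cells to myocytes was 2.96 over the 8 members and 1.09 over the 9067 genes with at least 1000 UMIs, of which 6.47% had a ratio of at least 3, as 4 of the 8 members did. These levels are plain shares of UMIs and were not tested.

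**Figure D3:**
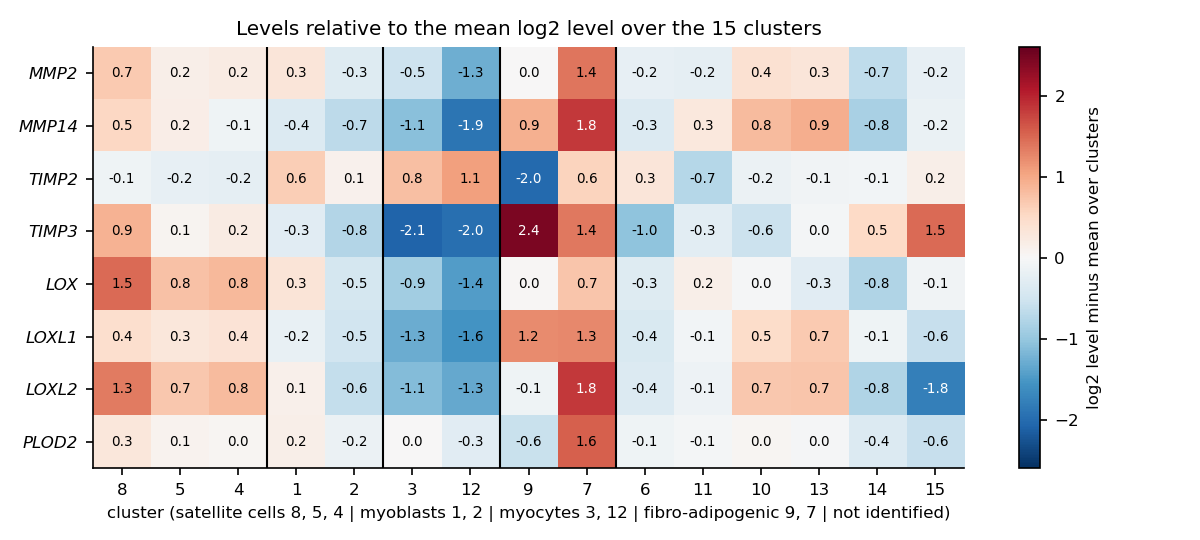
Log2 level of each gene (rows) in each cluster (columns) minus the mean of its log2 levels over the 15 clusters, red for above and blue for below, with lines between the classes named by the study. The myocyte columns 3 and 12 are blue for 6 genes and red for TIMP2, and in column 9 TIMP3 is at 2.4 and TIMP2 at -2.0.

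Each cluster was next compared with all other cells. Of the 120 pairs of a member and a cluster, 39 were called higher (32.5%), against 14.9% of all genes and clusters tested, and 43 were called lower (35.8%), against 17.1%. With the library as a block these counts were 43 and 58, where 20.2% of all genes and clusters were called higher and 22.2% lower. Cluster 8 had the most members called higher, 7 of 8, where 22.5% of all genes were called higher, and 0 lower, where 23.5% were. LOX, with a log2 fold change of 1.45 ± 0.0467 (approximate SE, adjusted p = 2.6e-05, edgeR's quasi-likelihood test), and LOXL2, with 1.36 ± 0.0459, had the largest values there. TIMP2, at -0.23, was the member not called, with an adjusted p of 0.526 in the same edgeR test and of 6.28e-13 with the library as a block.

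The lowest levels gathered in the myocytes. In cluster 12, 6 of 8 members were called lower, where 29.5% of all genes were, and in cluster 3 the same count was 6 of 8, where 25.4% of all genes were. In cluster 12 the log2 fold changes of these 6 ran from -2.11 for TIMP3 and -1.71 for MMP14 to -1.12 for MMP2. In cluster 12, TIMP2 was the 1 member called higher, where 24.8% of all genes were, and in cluster 3 TIMP2 and PLOD2 were, 2 of 8 where 24.5% were. TIMP2 was higher by 1.15 ± 0.224 in cluster 12 (adjusted p = 0.00551, edgeR's quasi-likelihood test) and by 0.86 ± 0.248 in cluster 3 (adjusted p = 0.0314). Without replicate 2 of the cluster the adjusted p of TIMP2 was 0.05 in cluster 12 and 0.148 in cluster 3, in edgeR's test, and in cluster 3 it was also 0.0711 without TMM, the scaling factor of edgeR, and 0.0725 with DESeq2. The call of PLOD2 in cluster 3 (0.17, adjusted p = 0.0298) was lost without replicate 1 (0.0937), with no filter on low counts (0.0790), with cells assigned by profile (0.0653) and without TMM (0.440), in edgeR's test, and without TMM its log2 fold change was 0.035. In myoblast cluster 2, 7 of 8 members were called lower, with 16.8% of all genes, and in the unidentified cluster 6 it was 6 of 8, with 9.48%. No member was called higher in these, where 15% and 10.6% of all genes were. The summed level of 6 genes of S and G2/M phase was 23.3 in cluster 2 and 24.0 in satellite cell cluster 4, where 4 members were called higher (16.3% of all genes) and 0 lower (15.3%). Its part in these results was not tested.

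The scaling weighed most in cluster 7. Without TMM, the median log2 fold change of all genes in cluster 7 moved from -0.12 to 0.52, and the calls over all genes moved from 2382 higher and 3443 lower to 4768 and 1625. The split was 3205 and 3318 against 2142 and 4474 in cluster 3, and 3273 and 3906 against 2452 and 5209 in cluster 12. The share of higher calls moved by over 10 percentage points in 12 of the 19 comparisons run, while 0 of the called pairs of a member and a cluster were called in the other direction under any alternative. The sign turned for 1 called pair, LOX in cluster 9, from -0.23 to 0.068 (adjusted p = 0.598 in edgeR's test) with the other clusters weighted equally. In cluster 7, 5 of 8 members were called higher and 0 lower, with 18.3% and 26.4% of all genes. These were MMP14 (1.26), LOXL2 (1.07), PLOD2 (0.95), MMP2 (0.76) and LOXL1 (0.59) on the log2 scale. MMP2 kept its size in cluster 7, at 0.76, when the 990 of its 1298 cells that had under 2000 UMIs were left out, but its adjusted p was then 0.0737 in edgeR's test.

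The other clusters held the remaining calls. In satellite cell cluster 5, 6 members were called higher and 0 lower, with 12% of all genes in either direction, and LOX (0.66 on the log2 scale) and LOXL2 (0.65) had the largest values, as they had in clusters 8 and 4. Myoblast cluster 1 was divided, with MMP2 (0.45), PLOD2 (0.27) and LOX (0.21) called higher, 3 of 8 where 14.6% of all genes were, and TIMP3 (-0.57), MMP14 (-0.26) and LOXL1 (-0.19) lower, 3 of 8 where 18.8% were. In cluster 9, 3 members were called higher, with 25.3% of all genes, and 4 lower, with 27.7%. In cluster 10, MMP14 (0.79), LOXL2 (0.45), LOXL1 (0.33) and MMP2 (0.30) were called higher, with 16.7% of all genes, and TIMP3 (-0.98) and LOX (-0.36) lower, with 21.9%. Cluster 11 had 1 member higher, MMP14 (12.8% of all genes), and 4 lower (13.7%), among them TIMP2 at -0.99 ± 0.223. The shallow cluster 13 had 3 higher (5.98%) and 1 lower (11.3%), and cluster 14 had 0 higher (3.73%) and 4 lower (4.07%). In cluster 15, edgeR's quasi-likelihood test called 0 members in either direction, with 0.0390% and 0.234% of all genes, though 3 had an unadjusted p under 0.05 and DESeq2 called 1, MMP2, lower. With the library as a block, and likewise with the other clusters weighted equally, LOXL2, PLOD2 and MMP2 were called lower there, with blocked values of -2.27, -0.81 and -0.47 and adjusted p-values of 0.00294, 0.0272 and 0.00624 in edgeR's test. Some calls needed both libraries. Without either library sum of the cluster, all 4 calls in cluster 14, where 0 of all genes were then called, those of LOXL1 and LOXL2 in cluster 13, TIMP2 in cluster 11, LOX and LOXL1 in cluster 1, MMP2 and PLOD2 in cluster 5, MMP2 in cluster 6 and PLOD2 in cluster 2 were lost, with adjusted p-values from 0.0517 to 0.199 in edgeR's test. In cluster 14 the direction stayed, with LOX at -1.18 and -0.72 against -0.93 with both. LOX in cluster 9 was also lost without replicate 1 (adjusted p = 0.129) and without TMM (0.0577), and LOXL2 there was at -0.080 (0.440) with the other clusters weighted equally, in edgeR's test. That equal weighting lost 9 calls in all and gained 8, so some calls depend on which cells make up all other cells. Those lost included TIMP3 (-0.18) and LOXL1 (-0.07) in cluster 1 and LOX (-0.13) in cluster 10. In cluster 11, TIMP3 (-0.31) and LOXL2 (-0.14) were lost as well. MMP2 in cluster 13, at 0.21 and not called (adjusted p = 0.0713), was called higher under 6 alternatives, among them the block (adjusted p = 0.000729 in edgeR's test). TIMP2 was called in 4 of 15 clusters in all, and in 13 with the library as a block, where it was higher in clusters 1, 3, 6 and 12 and lower in 9 others. Its blocked log2 fold change in the 9 clusters that gained a call was 0.63 in cluster 1 and 0.23 in cluster 6, and -0.08 in cluster 2, -0.43 in clusters 4 and 10, -0.37 in cluster 5, -0.36 in clusters 7 and 13 and -0.23 in cluster 8. In cluster 7 its main value was -0.20. This turned to 0.44 without TMM, 0.37 without cells under 2000 UMIs and 0.18 with the other clusters weighted equally, uncalled each time. Without replicate 1 of cluster 7 it was 0.33, and under the other alternatives it stayed below 0. The block also called PLOD2 higher in cluster 4 (0.07) and lower in clusters 6 (-0.07), 11 (-0.09) and 12 (-0.11), and LOX (-0.11) and LOXL1 (-0.19) lower in cluster 11.

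The comparison of cluster 9 with the 7 myogenic clusters together shows how this fibro-adipogenic cluster differed from the myogenic ones. Cluster 7, also named fibro-adipogenic by the study, was not part of it. TIMP3, LOXL1 and MMP14 were called higher, 3 of 8 members with 28.9% of all genes, and TIMP2, PLOD2, LOXL2 and LOX lower, 4 of 8 with 27.6%. The log2 fold change was 2.71 ± 0.0589 for TIMP3, 1.39 ± 0.0544 for LOXL1 and 1.23 ± 0.0391 for MMP14. It was -2.39 ± 0.279 for TIMP2, -0.64 ± 0.0416 for PLOD2, -0.35 ± 0.0442 for LOXL2 and -0.31 ± 0.0640 for LOX. Adjusted p-values of these 7 in edgeR's quasi-likelihood test ran from 6.83e-06 for TIMP3 to 0.00963 for LOX. MMP2 gave -0.02 ± 0.0358 (adjusted p = 0.633), and 0.0004 without TMM. Thus the set split within each family: 1 of 2 proteases and 1 of 3 oxidases were higher in cluster 9 by over 1 on the log2 scale, and the inhibitors went in opposite directions. The differentiation markers summed to 0.466 in cluster 9 and the myogenic markers to 1.60, and the part of myogenic RNA in the values of cluster 9 was not tested.

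**Figure D4:**
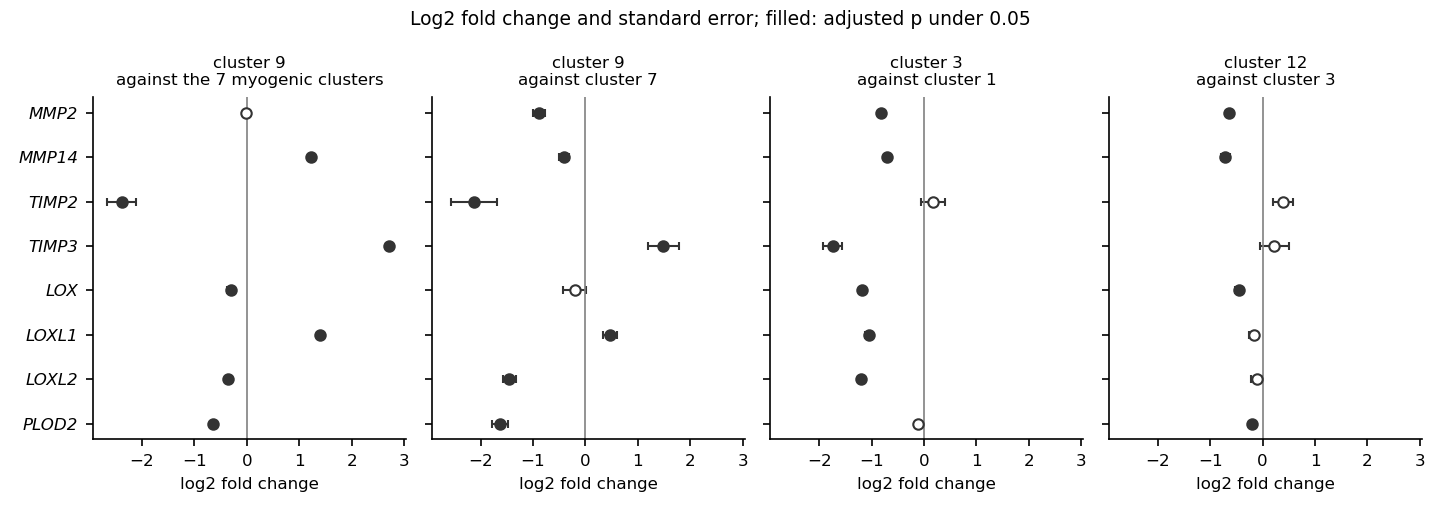
Log2 fold change (x axis) with its approximate standard error (bars) of each gene (rows) in 4 comparisons between clusters, filled where the adjusted p was under 0.05. In cluster 9 against the myogenic clusters TIMP3 is at 2.71 and TIMP2 at -2.39, whereas from cluster 1 to cluster 3, 6 genes lie between -1.75 and -0.70.

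Both clusters that were named fibro-adipogenic differed from each other in 7 of 8 members. TIMP3 and LOXL1 were called higher in cluster 9, 2 of 8 where 29.9% of all genes were, and TIMP2, PLOD2, LOXL2, MMP2 and MMP14 lower, 5 of 8 where 26.6% were. The largest differences were -2.12 ± 0.444 for TIMP2, -1.63 ± 0.152 for PLOD2, 1.49 ± 0.293 for TIMP3 and -1.45 ± 0.125 for LOXL2, with adjusted p-values of 0.00519, 0.000107, 0.00391 and 7.43e-05 in edgeR's quasi-likelihood test. The values were -0.88 for MMP2, -0.41 for MMP14 and 0.47 for LOXL1, and LOX, at -0.20 (adjusted p = 0.461), was not called. These are relative to a median of 0.05 over all genes, which was -0.46 without TMM, when the calls over all genes went from 3229 higher and 2864 lower to 1904 and 4587. LOXL1 then had -0.038 (adjusted p = 0.814), so its direction here rests on the scaling. MMP14 and LOXL1 also missed the threshold without either library sum of cluster 9, with adjusted p-values from 0.0974 to 0.188 in edgeR's test. TIMP3 had 0.83 (adjusted p = 0.118) without cells of under 2000 UMIs.

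The depth and the markers of cluster 7 moved with this comparison. Its libraries differed more than those of cluster 9 in the members with large differences, as in TIMP2 with 2.87 from 257 UMIs and 8.06 from 982 UMIs. MYH3, a myosin of differentiating muscle, was at 4.74 in cluster 7 and 0.12 in cluster 9. Their part in the differences between both clusters was not tested.

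Clusters 1, 3 and 12 follow each other in the myogenic trajectory that the study described. From cluster 1 to cluster 3, 6 of 8 members were called lower, where 19.1% of all genes were, and 0 higher, where 21.1% were. TIMP3 fell by 1.75 ± 0.185 on the log2 scale, LOXL2 by 1.21 ± 0.0604, LOX by 1.19 ± 0.0575 and LOXL1 by 1.06 ± 0.0644. MMP2 fell by 0.81 ± 0.0414 and MMP14 by 0.70 ± 0.0585, and the adjusted p-values of all 6 in edgeR's quasi-likelihood test ran from 2e-05 to 0.000438. PLOD2 gave -0.11 (adjusted p = 0.113) and TIMP2 0.17 (adjusted p = 0.59). With the library as a block both were called, PLOD2 at -0.10 (adjusted p = 0.000643) and TIMP2 at 0.18 (adjusted p = 1.99e-13). TIMP2 was higher in cluster 3 in each library, but the value turned to -0.12 without replicate 2 of cluster 3.

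From cluster 3 to cluster 12, MMP14, MMP2, LOX and PLOD2 were called lower and the other 4 members were not called. MMP14 fell by 0.71 ± 0.0931 on the log2 scale, MMP2 by 0.63 ± 0.0553, LOX by 0.45 ± 0.0786 and PLOD2 by 0.21 ± 0.0530, 4 of 8 members where 15.6% of all genes were called lower. Adjusted p-values in edgeR's quasi-likelihood test were 0.000861, 0.000103, 0.00335 and 0.0179. For PLOD2 it was 0.0771 with DESeq2 and 0.0707 without replicate 2 of cluster 12. No member was called higher, where 18.2% of all genes were. TIMP2 had 0.39 ± 0.191 (adjusted p = 0.154), and with the library as a block 0.40 (adjusted p = 1.13e-40). LOXL1 (-0.17), LOXL2 (-0.11) and TIMP3 (0.22) were not called, with adjusted p-values from 0.203 to 0.592. Without TMM the calls over all genes went from 1963 higher and 1687 lower to 1552 and 2527. Both steps share the libraries of cluster 3, and whether they differed from each other was not tested.

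The ratio of MMP2 to TIMP2 UMIs was compared only between clusters because the 2 genes may be captured unequally. Protease activity was not measured, and this ratio of RNAs leaves out TIMP1 and TIMP3. It was highest in cluster 9, at 14.9 in replicate 1 and 9.91 in replicate 2. In the satellite cell clusters 8, 4 and 5 it was 6.51 and 3.98, 5.10 and 3.19, and 4.75 and 3.10. It was 3.00 and 1.90 in cluster 1, 2.82 and 1.7 in cluster 2, 1.47 and 0.974 in cluster 3 and 0.714 and 0.478 in cluster 12. Within each library the order of these 8 clusters was the same, and cluster 9 lay above all others in both. The ratio of MMP14 to TIMP2 had the same ends, with 2.21 and 1.42 in cluster 9 and 0.0318 and 0.0266 in cluster 12. In cluster 7 the libraries gave 8.74 and 3.79 for MMP2 to TIMP2.

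**Figure D5:**
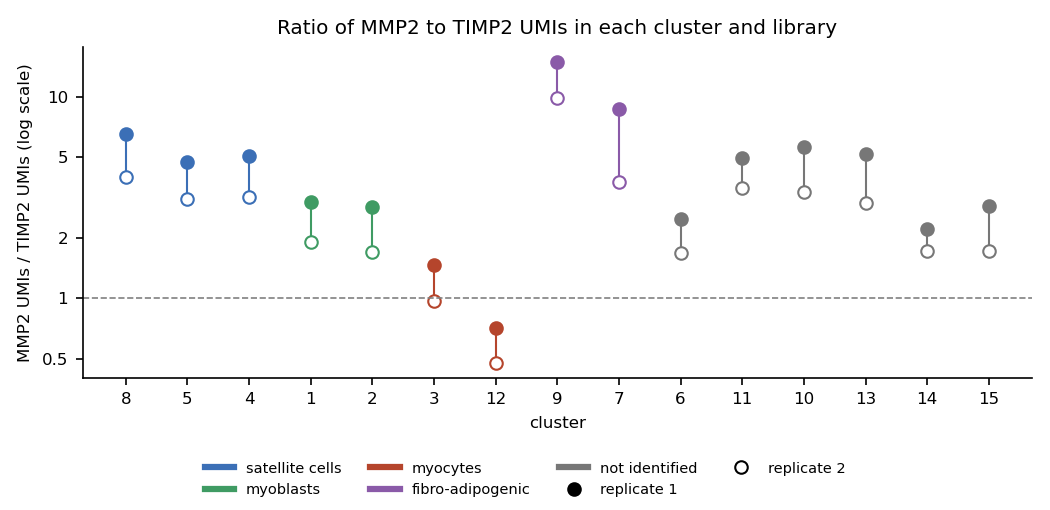
Ratio of MMP2 to TIMP2 UMIs (y axis, log scale) in each cluster (x axis), filled points for replicate 1 and open points for replicate 2, with a dashed line at 1. Cluster 9 is highest at 14.9 and 9.91, cluster 12 is lowest at 0.714 and 0.478, and replicate 2 is lower than replicate 1 in every cluster. The line marks equal UMI counts and not equal RNA, since the 2 genes may be captured unequally.

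The ratio of LOX to LOXL2 UMIs varied less. It lay between 1.57 and 2.29 in each library of clusters 1 to 6, 8, 9, 11, 12 and 14, although the level of each gene ranged several-fold over these clusters. It was 1.04 and 1.18 in cluster 10, 0.692 and 0.972 in cluster 7 and 1.10 and 0.735 in cluster 13, and in cluster 15 too few LOXL2 UMIs were counted for a ratio.

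Most cells of the deep clusters carried at least 1 UMI of MMP2, so the share of cells with a UMI told levels apart only for scarcer genes. TIMP3 was found in 55.0% of the cells of cluster 9, and in 4.03% of cluster 3, 4.31% of cluster 12 and 20.5% of cluster 8. TIMP2 was found in 67.6% of the cells of cluster 9, against 97.6% in cluster 12. MMP14 was found in 93.4% of cluster 9 and 31.9% of cluster 12. As a guide to free RNA, MYH3 was found in 11.9% of the cells of cluster 9, and 98.1% of cluster 12, and MYMK, the fusion gene myomaker, in 2.78% and 94.3%, at median depths of 23011 and 19113 UMIs. The shares of TIMP3 in clusters 3 and 12 lay between those of MYMK and MYH3 in cluster 9. This guide is rough, since such a share also depends on how abundant each RNA is in the culture. The highest MYH3 count in a cell of cluster 9 was 58 UMIs, and no doublets were removed. It therefore cannot tell free RNA of TIMP3 from expression in clusters 3 and 12. The folds of TIMP3 against clusters 3 and 12 were not corrected for free RNA.

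Each cell was also thinned to 1000 UMIs to remove the differences in depth. Then MMP2 was found in 77.1% of the cells of cluster 8, 64.1% of cluster 9 and 32.4% of cluster 12, and in 85.7% of the 1008 cells of cluster 7 that were deep enough. LOX was found in 27.7% of cluster 8, 10.5% of cluster 9 and 4.78% of cluster 12. TIMP2 was found in 49.9% of cluster 12, 24.1% of cluster 8 and 6.57% of cluster 9, and TIMP3 in 4.72% of cluster 9 and 2.42% of cluster 8. MYH3 was then found in 0.741% of cluster 9. Thinning left out 290 cells of cluster 7, 92 of cluster 13 and 294 of the 317 cells of cluster 15.

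Over the 15 clusters, the log2 levels of the members other than TIMP2 correlated positively with each other, but to very different degrees. The 21 correlations ran from 0.0656 for TIMP3 with PLOD2 to 0.922, with a median of 0.743. They were highest for MMP14 with LOXL1 (0.922), MMP2 with MMP14 (0.884) and MMP2 with LOXL2 (0.875). The 7 correlations with TIMP2 ran from -0.643 with TIMP3 to 0.336 with PLOD2, with a median of -0.310. These are descriptions over 15 clusters that share libraries and differ in depth, given without a background of other gene pairs. Among 8726 named genes with at least 1000 UMIs, the pattern most like that of LOX was DCN (Pearson's r = 0.966), which encodes decorin, a proteoglycan that binds collagen fibrils. For LOXL2 it was P4HA1 (0.965), a subunit of collagen prolyl hydroxylase, for PLOD2 ADAMTS2 (0.977), which trims procollagen, for MMP2 FAT4 (0.975), for MMP14 SHC1 (0.988), for LOXL1 IGFBP4 (0.968), for TIMP3 IER5L (0.941) and for TIMP2 ASB5 (0.940).

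Other genes of the same pathway were taken from 3 lists, with 20 further metalloproteinases and inhibitors, 28 genes of collagen processing and crosslinking and 23 further matrix proteases and inhibitors. Of those with enough counts, 35 of 51 were called lower and 2 higher from cluster 1 to cluster 3, and 20 of 48 lower and 4 higher from cluster 3 to cluster 12, against the shares of all genes given above. The median log2 fold changes of the lists together were -0.46 and -0.38, against 0.00 and -0.02 over all genes. SERPINE2, a protease inhibitor, fell by 1.05 ± 0.0545 and PCOLCE, an enhancer of procollagen trimming, by 0.87 ± 0.105 in the first step. In the second step ADAM12, a protease of fusing myoblasts, fell by 1.46 ± 0.125. PLAT, tissue plasminogen activator, rose by 0.58 ± 0.0659 and P4HA3, another subunit of prolyl hydroxylase, by 0.74 ± 0.101 in that step. TLL2, from the list of collagen processing and crosslinking, was called higher in both steps, by 0.51 and 0.83.

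In cluster 9 genes of these lists went in both directions. Against the 7 myogenic clusters, 26 of 57 were called higher, where 28.9% of all genes were, and 15 lower, near the 27.6% of all genes, with a median of 0.08 against -0.01 over all genes. The largest called fall was that of TLL2, with a log2 fold change of -3.21 ± 0.328. P4HA3 was at 0.0394 and 0.0509 UMIs per 10000 in cluster 9 with a log2 fold change of -1.99 ± 0.117, and ADAM15 had -1.91 ± 0.0882. Of genes with large rises, TGM2, a transglutaminase, had 41 and 26 UMIs in cluster 9 and ADAMTS9 had 79 and 56. Against cluster 7, 3 of 53 were called higher, where 29.9% of all genes were, and 27 lower, where 26.6% were, with a median of -0.71 against 0.05 over all genes. PCOLCE2 was higher by 0.83 ± 0.246 and PLAUR, the urokinase receptor, by 0.40 ± 0.137, while ADAM15 had -2.55 ± 0.234. In satellite cell cluster 8, 38 of 57 were called higher, where 22.5% of all genes were, and 2 lower, where 23.5% were, with a median of 0.54, in the same direction as 7 of the 8 members there.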

How the data were processed

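Libraries were made with the 10x Genomics 3′ kit, and each UMI stands for 1 captured RNA molecule. Cell Ranger 3.0.2 was used by the authors for alignment to ARS-UCD1.2 and for joining both libraries, with reads thinned to a like number per cell, and the deposited counts are whole UMI counts per gene and cell without further normalization. They also deposited a table of average counts, log2 fold changes and p-values per cluster, of which only the averages were used. These averages convert to whole UMI sums, and the cluster of all 19096 cells was deduced from them, with 0 sums that differed. The library of a cell was read from its barcode's suffix. No doublets were removed. UMIs were summed per library and cluster and compared with edgeR 4.0.16 (TMM, filterByExpr, glmQLFTest) in R 4.3.3, called at an adjusted p under 0.05. The SE beside a log2 fold change is approximate. It was derived as the absolute log2 fold change divided by the square root of the F statistic of that test. Comparisons over 10785 to 13224 genes rested on 2 sums against 2. The library number pairs the sums, since each library gave both sides of a comparison, and log2 ratios of replicate 1 to replicate 2 on both sides correlated between 0.167 and 0.669 over 19 comparisons (median 0.557, genes with at least 20 UMIs per sum). Main values carry no block.

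Alternatives were DESeq2 1.42.0, no TMM, the library as a block, all genes with no count filter, leaving out cells under 2000 UMIs or the 8% with the highest Scrublet score, assignment of cells by cluster profile without the listed genes, leaving out a library sum and weighting the other clusters equally. All 8 members are named in every comparison, and of the wider lists the 3 largest called log2 fold changes in each direction could be named, of which 1 gene is not reported here. For likeness, log2 levels with a pseudocount of 0.01 were correlated over clusters. Members and lists were chosen with earlier results of these data known. Mitochondrial genes, as a sign of RNA quality, were not used here.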

Additional observations from a re-analysis of the deposited data

How the results depend on the processing

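The counts of pairs called over all clusters, and of members called in each of the 4 comparisons between clusters, stayed within 1.5 times their main value under every alternative run. Counts for 1 member or 1 cluster moved more, as given above for TIMP2 with the block (4 to 13 clusters), cluster 14 and cluster 15. Without the sum of one library of the cluster, the pairs called higher numbered 31 to 33 (39 with both) and the pairs called lower 34 to 35 (43 with both), since 16 and 17 calls were lost and 1 was gained each time. The members called numbered 5 in cluster 9 against cluster 7 (7 with both), 7 against the myogenic clusters, 6 in cluster 3 against cluster 1 and 3 to 5 in cluster 12 against cluster 3 (4 with both). With the library as a replicate block, the pairs called numbered 43 higher and 58 lower, and over the 120 pairs the block added 19 calls and lost 0. Calls over all genes and clusters rose too, from 14.9% to 20.2% higher and from 17.1% to 22.2% lower. The members called in these 4 comparisons with the block were 7, 7, 8 and 5. The counts of this paragraph for the 4 comparisons or without a library sum have no share of all genes beside them. They show only how the calls moved.

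In the 4 comparisons between clusters, values that changed sign were LOXL1 in cluster 9 against cluster 7 without TMM (-0.038), MMP2 in cluster 9 against the myogenic clusters without TMM (0.0004) and TIMP2 in cluster 3 against cluster 1 without replicate 2 of cluster 3 (-0.12, against 0.42 without replicate 1), where by construction the library with the lower TIMP2 level was set against both sums of cluster 1. The cause of the first 2 lies in the scaling, since nothing else was altered. Over the 120 pairs, the sign turned 30 times in 18 pairs, of which 1 had been called, LOX in cluster 9. LOX in cluster 7, at -0.11 and not called, had no settled direction. With the other clusters weighted equally it was at 0.32 (called higher, adjusted p = 0.0244 in edgeR's test). Without replicate 2 of cluster 7 it was at -0.50, and without replicate 1 at 0.18. LOX in cluster 9 against cluster 7 was called without TMM (-0.71, adjusted p = 0.0175 in edgeR's test), and LOXL1 there missed the threshold with DESeq2 (adjusted p = 0.0615). Assignment by profile, under which 85.4% of the cells kept their cluster, called LOXL1 in cluster 12 against cluster 3 (-0.34, adjusted p = 0.0263 in edgeR's test). Without cells under 2000 UMIs cluster 15 had no cells left. The 2 libraries of 1 calf limit every p-value to the spread of preparation, and levels in clusters 13 to 15 rest on few UMIs.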
